A study of Xerophyta schlechteri with 51 samples.

Results

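Senescent leaf tissue of the resurrection plant Xerophyta schlechteri was compared 48 h after rewatering with the same class of tissue at full turgor, to find the genes whose transcripts came back to the hydrated level. The comparison rests on 6 of the 51 libraries of the series, 3 of rewatered senescent tissue (ST) and 3 of ST at full turgor, and it covered 18717 genes. The libraries were chosen by their labels alone. The other groups used were dry ST, taken at <10% relative water content (RWC, leaf water relative to the fully hydrated leaf), ST at 75%, 55% and 35% RWC, and non-senescent tissue (NST) and pre-senescent tissue (PST) at the same stages, with 3 libraries each and no PST group at full turgor. All were leaf blades of 1 species, and no genotype, age or agent other than drying and rewatering is given. The label that gives the stage names the water content of the NST, so a stage does not give the water content of the ST itself, and the labels state that RWC varied after rehydration. The labels do not tie libraries to separate plants. The p-values below therefore reflect the spread among the sampled libraries alone, and part of that spread may be technical.

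Resurrection plants survive the loss of nearly all water from their leaves. In species of Xerophyta the leaves dismantle their photosynthetic membranes and lose chlorophyll as they dry, build up protective proteins and sugars, and rebuild the photosynthetic machinery after rain. Part of the leaf, often the tip or the oldest tissue, does not recover and instead senesces, a program that takes the cell apart and exports its nutrients. The comparison asks which transcripts that drying had changed were brought back in such tissue. The table pairs no identifier with a gene name, so genes are given by identifier or by how they moved, the tissue labels were not checked against marker genes, and no gene function is stated.

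Levels are FPKM (fragments per kilobase of transcript with library size scaled out), and differences are on the log2(FPKM + 1) scale, on which changes of low genes come out too small. Genes at an FPKM of at least 1 numbered 15989 ± 157 in ST at full turgor, 14668 ± 267 in dry ST and 14002 ± 245 in rewatered ST (SD, n = 3 each). Absolute depth is unknown. The FPKM at the lowest 1% of the values above 0, a rough sign of what few fragments are worth, ran from 0.03 to 0.04 at full turgor, 0.05 to 0.07 in dry ST and 0.04 to 0.07 in rewatered ST. Across genes, which are not independent replicates, log2 levels correlated at r = 0.938 to 0.948 among the 3 rewatered ST libraries and at 0.917 to 0.95 among those at full turgor. Between these groups the correlation was 0.634 to 0.714. Rewatered ST correlated at 0.758 to 0.886 with dry ST and at 0.914 to 0.962 with dry NST. The dry ST libraries thus lay further from rewatered ST than the dry NST libraries did.

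After 48 h with water, most of the change that drying had made in ST was still in place. Against full turgor, 4136 genes were higher (22.1% of those tested) and 5585 lower (29.8%), together 51.9% (limma, Benjamini-Hochberg adjusted p under 0.05). Genes past that threshold are said to be called below. Many of the changes were large. A log2 difference of at least 1 was reached by 3259 higher and 4501 lower genes, one of at least 3 by 603 and 832, and one of at least 5 by 141 and 111. Under quantile normalization, which gives every library 1 distribution, 4872 were higher and 4346 lower, so that the higher share went from 42.5% to 52.9% of the called genes. That normalization moved the median difference of all genes from -0.2 to 0.05, and the balance of higher against lower genes therefore depends on the scaling. In bulk samples, fewer cells of a type and less RNA per cell cannot be told apart.

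The genes furthest above full turgor had been scarce at full turgor and ranked with the most abundant transcripts afterwards. At full turgor the libraries gave Xvis03_205230 at 105.7, 3.61 and 4.85 FPKM. It stood at 16054.2, 14781.7 and 31410 FPKM in dry ST and at 17521.4, 36479.3 and 29497.8 after rewatering. The rewatered libraries overlapped the dry ones and lay above every library at full turgor, with a log2 difference of 10.87 from full turgor (standard error 0.92, limma adjusted p = 1.56e-11). Xvis03_213679 stood at 5.89, 0 and 0.5 FPKM at full turgor, at 741.39, 1995.13 and 900.59 in dry ST, and at 2426.86, 2084.5 and 4144.34 after rewatering. Each rewatered library was above each dry one, although the difference between these groups was short of the threshold (log2 1.32, standard error 1.13, limma adjusted p = 0.413). The difference from full turgor was 10.31 (standard error 1.13, limma adjusted p = 2.5e-09).

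The genes furthest below full turgor stood at or near 0 in both dry and rewatered ST. Xvis03_218252 stood at 1203.55, 2367.3 and 1273.43 FPKM at full turgor, at 0, 0 and 0.45 in dry ST, and at 0, 0.74 and 0 after rewatering (limma adjusted p = 1.58e-07). Xvis03_208703 stood at 759.97, 774.93 and 813.59 FPKM at full turgor, and every dry and rewatered ST library listed it at 0 (limma adjusted p = 3.74e-13). Since an exact 0 in such a table may stand for an estimate that failed, neither gene is given a fold against full turgor. The differences between tissues given for them in the closing section rest on these values too. Log2 differences given for other genes with values of 0 share this limit. Other genes were also listed at 0 after rewatering. Of 8679 genes with a mean of at least 10 FPKM in ST at full turgor, 52 were listed at 0 in all 3 rewatered libraries. Of these 52 genes, 23 were at 0 in all dry ST libraries too, and 24 were above 0 in all 3 rewatered NST libraries. In the other direction, 5 of the 8000 genes with a mean of at least 10 FPKM in rewatered ST were listed at 0 in all libraries at full turgor.

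In their share of the summed FPKM, the most abundant transcripts of the hydrated leaf were hardly restored. The 100 genes of highest mean FPKM in ST at full turgor, each at 567 FPKM or more, held 27.3% ± 1.88 of the summed FPKM there. Their share was 9.69% ± 0.727 in dry ST and 8.97% ± 0.258 after rewatering (SD, n = 3 each), and the groups at full turgor and after rewatering did not overlap. The summed FPKM was itself higher in dry ST (980887) and rewatered ST (906083) than at full turgor (551001, means of 3). The share of these genes therefore fell by more than their own summed FPKM did. Per gene, their median difference of rewatered ST from full turgor was -2.21 on the log2 scale. Of these genes 60 were lower and 6 higher than at full turgor, where 29.8% and 22.1% of all genes tested were, and 22 were still among the 100 highest. Conversely, the 100 highest genes of rewatered ST held 36.5% ± 2.38 of the summed FPKM there, 27.5% ± 4.06 in dry ST and 8.32% ± 1.21 at full turgor (SD, n = 3 each). These lists were chosen on the level in one of the groups compared, which favours that group. Among the 100 highest of full turgor, 25 were not among the genes followed by the rule given next. Of the others, 41 held their drying change, 17 were partly returned, 17 were undecided and 0 were returned. Of all genes followed by that rule, 62.5% were held, 6.1% partly returned, 20.8% undecided and 8.98% returned. Partly returned genes were thus more frequent among these abundant genes.

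To find the genes that did come back, each gene was followed from full turgor through the dry state to rewatering. Dry ST differed from ST at full turgor in 54.3% of the genes tested, and 8143 genes (43.5%) were called with a log2 change of at least 1. A gene was counted as returned if it was called back after rewatering (rewatered against dry ST, opposite to the drying change) and if the 90% interval of its difference from full turgor lay within -1 to 1. A missed threshold was therefore not taken as a return. A gene was held if it was still called in the drying direction against full turgor and not called back, partly returned if it was called in both, crossed if it was called past full turgor to the other side, and undecided otherwise. The changes on drying and after rewatering share their full-turgor libraries. The drying change and the call back share the dry ST libraries, which enter them with opposite sign. A deviation of these libraries can thus produce a change together with its call back. The classes were made from these ST libraries, so the ST values of the classes are a description and no test.

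The returned genes were a minority, 731 of the 8143 genes (8.98%). Against them stood 5090 held genes (62.5%), 497 partly returned (6.1%), 133 crossed (1.63%) and 1692 undecided (20.8%). In all, 2329 of the genes (28.6%) were called back after rewatering, where 29.9% of all genes tested were called in either direction, 13.8% upward and 16.2% downward. Of those called back, 968 were undecided, since their interval was too wide or reached too far from full turgor. Near the limit, the returned gene closest to it had an interval reaching 0.9991 from full turgor, and the next gene outside reached 1. An interval that reached less than 1 to either side of its own estimate, without which no gene could count as returned, was found for 6693 of the 8143 genes (82.2%).

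**Figure D1:**
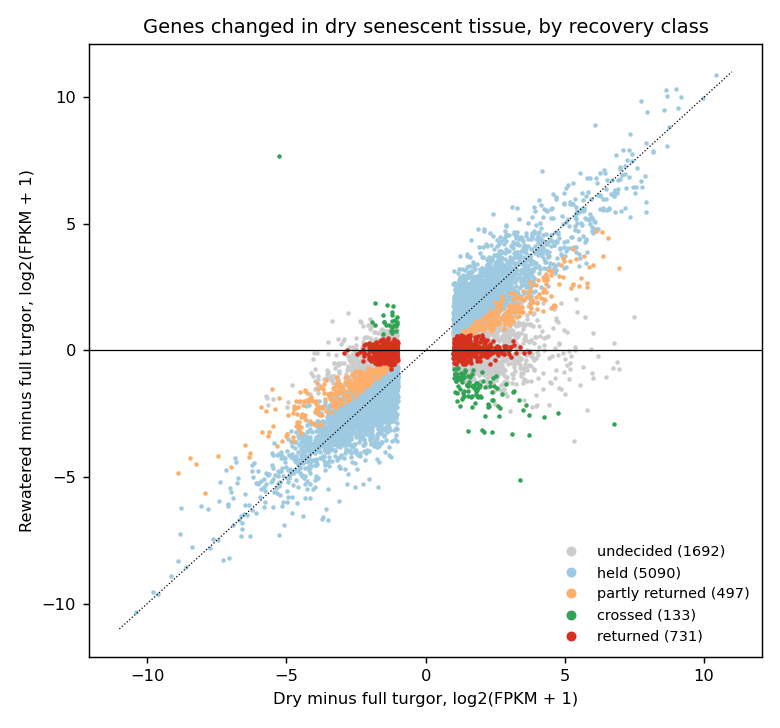
Each point is 1 of the 8143 genes called in dry ST with a log2 change of at least 1, placed by its difference from full turgor in dry ST (x axis) and in rewatered ST (y axis), both in log2(FPKM + 1); colours give the class. Held genes (5090) lie along the dotted line of equal change. The 731 returned genes lie in a band less than 1 unit above or below the horizontal line, within 4 units of the centre.

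Genes that rose and genes that fell on drying came back in somewhat different shares, and which share was larger depended on the settings. Of all genes tested 25% were called higher and 29.3% lower in dry ST. Of the 3779 that rose by at least 1, 400 returned (10.6%) and 2062 were held (54.6%). Of the 4364 that fell by at least 1, 331 returned (7.58%) and 3028 were held (69.4%). With 0.1 FPKM added before the logarithm in place of 1, the returned shares were 5.94% of the genes that rose and 6.14% of those that fell. With a filter of 5 FPKM they were 7.86% and 8.26%, and among genes with a mean of at least 5 FPKM in the ST libraries compared, a setting chosen after seeing the data, 7.56% and 10.3%. The genes that rose and returned went from a median of 6.87 FPKM at full turgor to 21.4 in dry ST and 7.18 after rewatering. Those that fell and returned went from 13.9 to 4.71 and to 13.5 FPKM. The held genes, by contrast, went from 10.8 to 52.9 and 61.2 FPKM where they rose, and from 11.8 to 1.47 and 1.44 where they fell. At 48 h the medians of the held genes were no nearer to full turgor than in the dry leaf.

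Partly returned genes were among those that drying had changed most. Their rule favours large changes, since it asks for calls against both full turgor and dry ST. A drying change of at least 2 on the log2 scale was found in 80.3% of the 233 that rose and 84.8% of the 264 that fell. The former went from a median of 12.3 FPKM at full turgor to 90.2 in dry ST and 38.4 after rewatering, and the latter from 25.1 to 2.34 and 7.49 FPKM. Their library medians after rewatering were 1.41 ± 0.20 and -1.51 ± 0.23 from full turgor (SD, n = 3 each), still well outside the libraries at full turgor. Crossed genes were few. The 105 that rose went from a median of 6.52 to 37.8 and then to 0.803 FPKM, below the hydrated level, and the 28 that fell went from 11.9 to 3.4 and then to 26.7 FPKM, above it.

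The share of genes that returned was lower where the drying change was larger. Among genes with a drying change of 1 to 1.5 on the log2 scale, 445 of 2563 returned (17.4%). The share was 10.7% (200 of 1866) from 1.5 to 2, 3.57% (76 of 2129) from 2 to 3 and 1.1% (10 of 912) from 3 to 4. Of the 673 genes that had changed by 4 or more, 0 returned and 478 (71%) were held. Genes with large changes also had wider intervals. Among genes whose interval reached less than 1 to either side the shares were 17.4%, 11.8%, 4.56%, 1.77% and 0%, in the same order. The margin of 1 was the same for all genes. A gene with a small drying change could thus be returned with a larger part of it left. The lower share among large changes is therefore partly set by the rule. This split by size was chosen after the data were seen.

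Returned genes were also found at different levels of the hydrated leaf. Of the genes that rose from 1 FPKM or less at full turgor, 133 of 535 returned (24.9%), and for these the logarithm with its added 1 FPKM narrows any difference between low levels. Between 1 and 10 FPKM the returned share was 6.93% of the genes that rose and 6.68% of those that fell. Between 10 and 100 FPKM it was 9.62% and 9.16%. Above 100 FPKM it was 5.6% (7 of 125) and 2.36% (8 of 339).

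Among the returned genes, those with the largest drying changes were taken as examples. Xvis03_224098 stood at 1.95, 0.73 and 0.88 FPKM at full turgor, at 49.82, 19.47 and 19.25 in dry ST, and at 0.85, 1.15 and 1.03 after rewatering. All dry libraries were above all others, with a drying change of 3.7 (standard error 0.52) and a difference of rewatered from full-turgor ST of -0.08 (90% interval -0.96 to 0.8). Xvis03_213865 stood at 0.14, 0 and 0.17 FPKM at full turgor, at 44.06, 3.98 and 8.16 in dry ST, and at 0, 0 and 0.11 after rewatering. Dry ST replicate 0 was far above the others. At the stages between, it stood at 2.64, 0.72 and 0.33 FPKM at 75% RWC, at 0, 3.6 and 0 at 55% and at 0.22, 0.23 and 0.36 at 35%, so that 1 library at 55% RWC came close to the lowest dry one. Its drying change was 3.53 (standard error 0.44), and its difference from full turgor after rewatering was -0.09 (90% interval -0.83 to 0.65).

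Among the genes that fell and returned, the levels after rewatering lay within or close to the range at full turgor. Xvis03_207059 stood at 26.29, 47.9 and 56.12 FPKM at full turgor, at 5.21, 4.8 and 3.64 in dry ST, and at 33.7, 31.8 and 51.41 after rewatering. Its drying change was -2.94 (standard error 0.46), and its difference from full turgor after rewatering was -0.12 (90% interval -0.89 to 0.66). Xvis03_210343 stood at 34.46, 47.73 and 20.64 FPKM at full turgor, at 2.72, 6.94 and 2.43 in dry ST, and at 41.74, 46.45 and 18.62 after rewatering. Its drying change was -2.84 (standard error 0.51), and its difference after rewatering was 0.03 (90% interval -0.82 to 0.88). These 4 genes were taken for the largest drying change among returned genes, so their ST values are a description.

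**Figure D2:**
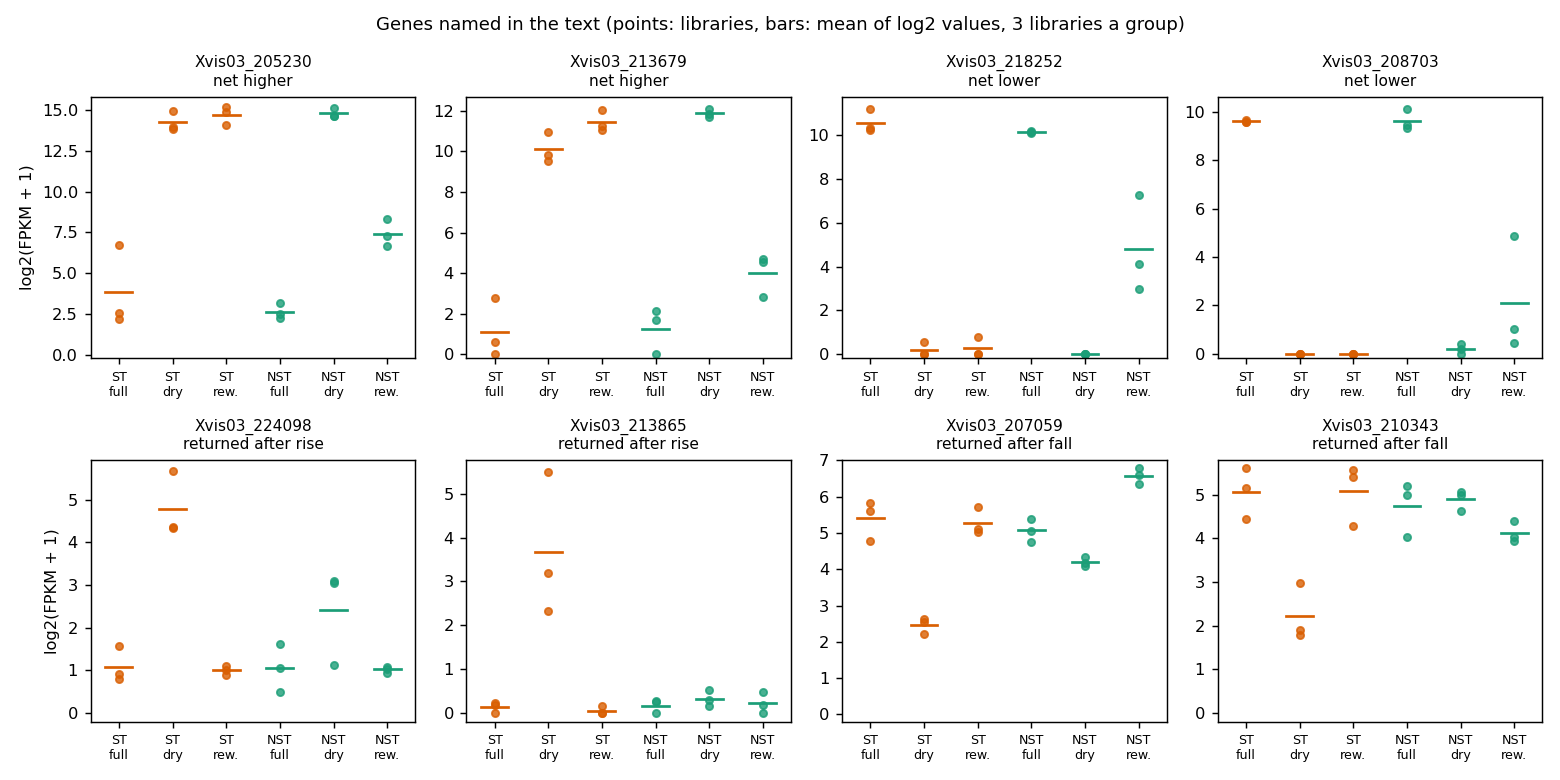
Levels of the 8 named genes as log2(FPKM + 1) (y axis) in ST (orange) and NST (green) at full turgor, dry and rewatered; points are libraries and bars are means of 3. In the upper row rewatered ST is far from full turgor, on the side of the dry libraries, and in the lower row it is back among the libraries at full turgor.

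Which genes were returned depended on the settings. Of the 731 genes, 203 were classed as returned in each of the 9 fits that left out 1 of the libraries that defined it, and 91 (12.4%) in all of these and the 7 settings that changed the fit or its input. Those 16 settings kept the rule for a return as it was. A stricter rule left fewer, 39 with a margin of 0.5 and 86 with a drying change of at least 2. Quantile normalization gave 725 returned genes, a similar number, of which 325 were shared. Xvis03_213865 was returned in 13 of the 16 settings, Xvis03_207059 in 12, Xvis03_210343 in 9 and Xvis03_224098 in 8.

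Across the stages, the median change of the returned genes did not grow from 75% to 35% RWC. In ST, the median difference from full turgor of the genes that rose and returned was 0.66 ± 0.34 at 75% RWC, 0.64 ± 0.25 at 55% and 0.40 ± 0.17 at 35%. It then reached 1.47 ± 0.35 in dry ST, with library medians of 1.88, 1.25 and 1.3, and was 0.03 ± 0.05 after rewatering (SD, n = 3 each). The genes that fell and returned stood at -0.52 ± 0.31, -0.53 ± 0.29 and -0.35 ± 0.16 at the same stages, at -1.37 ± 0.15 in dry ST and at -0.09 ± 0.12 after rewatering. Held genes took another course. Those that rose stood at 1.34 ± 0.31, 1.49 ± 0.38 and 1.79 ± 0.17 at 75%, 55% and 35% RWC, at 1.98 ± 0.09 in dry ST and at 2.18 ± 0.09 after rewatering, and those that fell ended at -2.03 ± 0.09. The levels at 75%, 55% and 35% RWC did not choose the classes, although these libraries entered the estimate of spread, and all differences share the full-turgor libraries. The dry and rewatered ST levels did choose the classes. The step from 35% RWC to dry ST, and its contrast with the held genes, are therefore partly set by the choice.

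**Figure D3:**
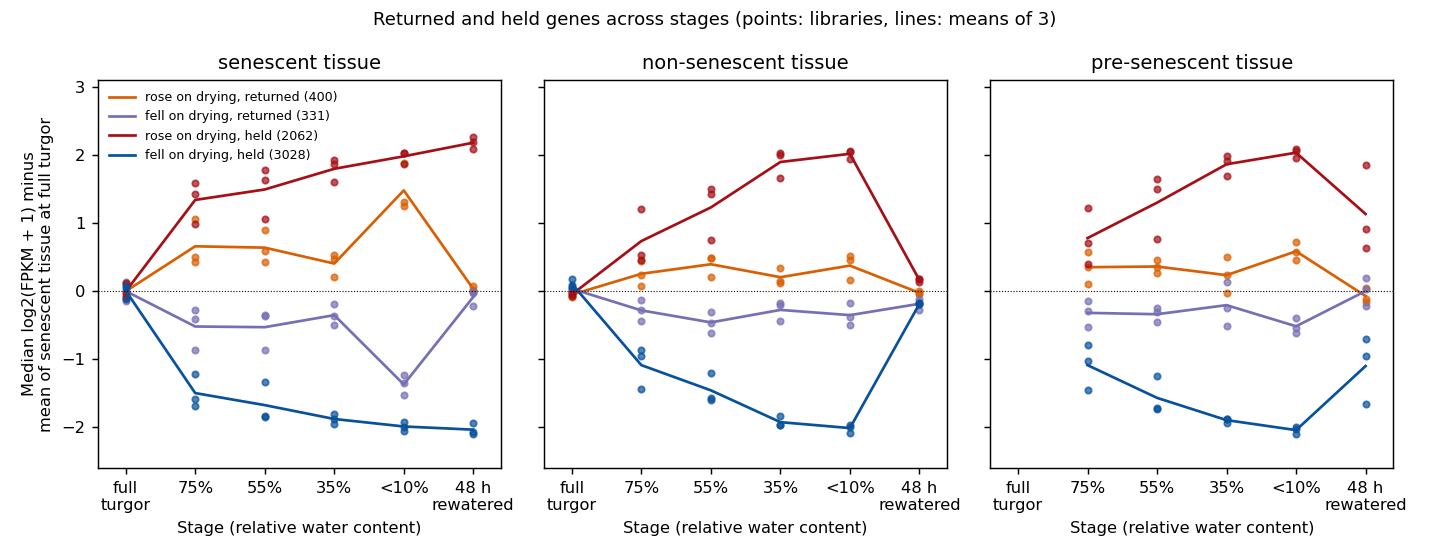
Median difference from the mean of ST at full turgor, in log2(FPKM + 1) (y axis), of returned and held genes over the stages (x axis) in ST, NST and PST; points are libraries and lines are means of 3. Returned genes depart furthest in dry ST (1.47 and -1.37) and are near 0 after rewatering, whereas held genes stay near 2 and -2 in rewatered ST and come back in rewatered NST.

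The same genes were then followed in NST, whose levels did not choose the classes, although its libraries entered the estimate of spread in the fit. With only the compared ST groups in the fit, 524 of the 731 returned genes were still returned. Most held genes had changed in the same direction in dry NST. Of the held genes that rose in ST, 1958 of 2062 (95%) were higher in dry NST than in NST at full turgor, where 22.2% of all genes were, and of those that fell 2861 of 3028 (94.5%) were lower, where 29.6% of all genes were. Far fewer returned genes had. Of those that rose, 107 of 400 (26.8%) were higher in dry NST, and of those that fell 80 of 331 (24.2%) were lower, shares near those of all genes. Held genes had larger drying changes, of at least 2 in 48.4% and 47.8%, against 16.5% and 6.04% of returned genes. They were also called in the drying direction in both dry and rewatered ST, and returned genes in dry ST alone. The classes were not matched for either, so their contrast in dry NST may be partly set by the choice. Under quantile normalization the shares of returned genes were 26.7% of those that rose, against 26.3% of all genes, and 28.3% of those that fell, against 24.9%. Without dry ST replicate 0, which carried the largest departure of the returned genes, they were 29.7% and 26.2%. With a pseudocount of 0.1 they stood further from all genes, at 34.3% against 22.5% and at 19.2% against 29.2%. In the main fit, calls of returned genes in the opposite direction were rare. Of those that rose, 0 were lower in dry NST, where 29.6% of all genes were. Of those that fell, 4 (1.21%) were higher, where 22.2% of all genes were. The returned genes called in dry NST thus went almost wholly in the ST direction. ST and NST at full turgor deviated together by library number (r = 0.68, 0.68 and 0.75 across genes), so the drying changes of the tissues are not fully separate measurements.

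**Figure D4:**
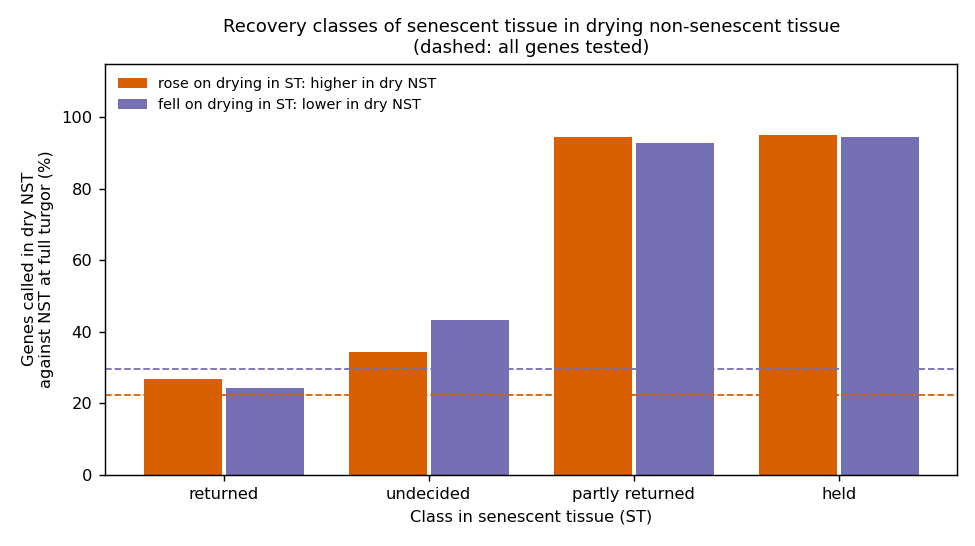
Share (y axis, percent) of the genes of each ST class (x axis) that changed in the same direction in dry NST against NST at full turgor, for genes that rose (orange) and fell (purple) in dry ST; dashed lines give all genes tested, 22.2% higher and 29.6% lower. Held and partly returned genes stand above 92%, and returned genes between 24% and 27%.

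The named returned genes differed among themselves in NST. In hydrated NST Xvis03_224098 stood at 2.08, 1.07 and 0.41 FPKM, and it stood at 7.52, 7.3 and 1.19 in dry NST, a rise that passed the threshold (log2 1.37, standard error 0.52, limma adjusted p = 0.027). Xvis03_213865 stayed at or below 0.43 FPKM in each hydrated, dry and rewatered NST library. Xvis03_210343 stood at 30.72, 35.55 and 15.49 FPKM in hydrated NST and at 30.71, 23.71 and 32.56 in dry NST, groups that overlapped (limma adjusted p = 0.822). Xvis03_207059 differed again, since it went above its hydrated level in rewatered NST, with 109.31, 96.62 and 80.71 FPKM against 26.17, 32.24 and 41.13 at full turgor (log2 1.51, standard error 0.46, limma adjusted p = 0.0185).

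After rewatering, the tissues parted in the held genes. Of those that rose in ST, 1670 (81%) fell in NST from the dry to the rewatered state, where 23.8% of all genes did, and of those that fell 2332 (77%) rose there, where 30.7% of all genes did. Of the returned genes that had risen, 123 (30.8%) fell in NST on rewatering, and of those that had fallen 97 (29.3%) rose. In the other direction, 30 of those that had risen (7.5%) rose there and 68 of those that had fallen (20.5%) fell. Against its own full turgor, rewatered NST was higher in 230 of the held genes that rose (11.2%, against 8.97% of all genes). It was lower in 567 of those that fell (18.7%, against 8.07%). Returned genes had such calls too, with 31 of those that rose (7.75%) higher and 69 of those that fell (20.8%) lower. The excess of lower genes was thus not particular to the held genes. In rewatered NST, the genes held in ST after a rise stood 0.16 ± 0.02 above ST at full turgor and those held after a fall at -0.18 ± 0.00 (SD, n = 3 each). The rewatering change was tested between the tissues as an interaction, in which 21.2% of all genes changed more upward in ST and 29.7% more downward. Of the held genes that rose, 1450 (70.3%) changed more upward in ST, and of those that fell 1994 (65.9%) changed more downward. The change from full turgor to rewatering differed between the tissues in 36.2% of all genes, more upward in ST in 15.7% and more downward in 20.5%, and it was greater in ST for 1490 of the held genes that rose (72.3%) and for 1972 of those that fell (65.1%). These interactions use the ST libraries that chose the classes, so the counts describe the classes and do not test them. In rewatered PST the held genes lay between, at 1.13 ± 0.64 and -1.10 ± 0.49, with libraries that ranged from 0.63 to 1.85 and from -1.65 to -0.7.

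Set beside NST by the same rule, the share of ST genes that returned was small. In NST, 7665 genes were called in the dry tissue with a log2 change of at least 1, out of 51.8% of genes called at any size. Of these, 2319 (30.3%) returned and 678 (8.85%) were held, and 3782 (49.3%) were undecided. A total of 5615 genes qualified in both tissues in the same direction, of which 1621 (28.9%) returned in NST and 75 (1.34%) in ST, and 35 in both. This restriction left out most genes that returned in ST, since 351 of the 400 that rose and 305 of the 331 that fell did not qualify in NST. Of the held genes it left out 256 of 2062 and 299 of 3028. The 1.34% is therefore partly set by the restriction, and among all ST genes followed the returned share was 8.98%. A total of 1344 returned in NST and were held in ST, 630 after a rise and 714 after a fall. The reverse, held in NST and returned in ST, was met by 3 genes. Per gene, the median share of the drying change reversed after rewatering was 19.6% in ST and 94.4% in NST, and a share of at least 50% was reached by 30% of the genes in ST and 83.8% in NST. The rewatered ST libraries had medians of 26.1%, 19.6% and 12.9% in replicates 0, 1 and 2. This use of the rule in NST was added after the data were seen, and these tissue shares were not tested.

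A last group ran against the return. In 725 genes rewatered ST was called against full turgor with a log2 difference of at least 1, while the 90% interval of dry ST against full turgor lay within -1 to 1. Of these, 417 were higher after rewatering, with medians of 11.6 FPKM at full turgor, 12.9 in dry ST and 32.8 after rewatering, and 308 were lower, with 10.5, 10.7 and 2.84 FPKM. In 637 of the 725 genes rewatered ST was also called against dry ST in that direction. They had not stayed flat through drying. The median of the higher genes was 0.82 ± 0.09 above full turgor at 35% RWC, 0.16 ± 0.15 in dry ST and 1.33 ± 0.10 after rewatering, and that of the lower genes was -0.87 ± 0.12, -0.13 ± 0.37 and -1.37 ± 0.09 (SD, n = 3 each). The dry ST libraries spread widely for the lower genes, at 0.29, -0.27 and -0.4 in replicates 0, 1 and 2.

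Most of these genes changed in dry NST. Of the 417 higher genes, 311 (74.6%) were higher in dry NST than in NST at full turgor, while 22.2% of all genes were. Among the 308 lower genes the corresponding number was 189 (61.4%), with 29.6% of all genes lower. Their medians in dry NST were 0.95 ± 0.12 and -1.01 ± 0.10, and in rewatered NST 0.06 ± 0.02 and -0.28 ± 0.04. In rewatered PST they were 0.78 ± 0.23 and -0.95 ± 0.24 (SD, n = 3 each). Both the returned genes and these genes were chosen on the dry ST libraries, so that their distance there from ST at 35% RWC and from the other dry tissues is partly set by the choice. The summed FPKM was 980887 in dry ST, 551001 in ST at full turgor and 906083 in rewatered ST (means of 3), and its part in these results was not tested.

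**Figure D5:**
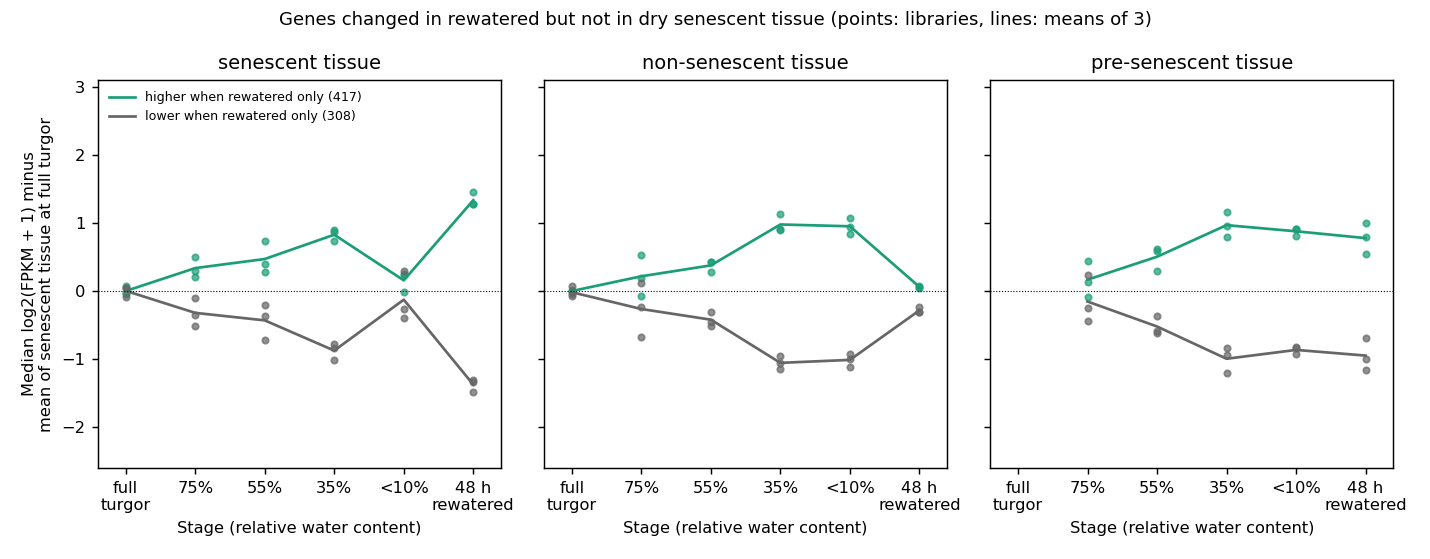
Median difference from the mean of ST at full turgor, in log2(FPKM + 1) (y axis), over the stages (x axis) in ST, NST and PST. The genes are the 417 higher and the 308 lower in rewatered ST whose 90% interval in dry ST lay within -1 to 1. Points are libraries and lines are means of 3. In ST the medians move out to 0.82 and -0.87 at 35% RWC, fall back in dry ST and reach 1.33 and -1.37 after rewatering.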

How the data were processed

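The authors deposited 1 table of FPKM values for 51 libraries of leaf blade RNA, rounded to 2 decimals. The submitters' processing notes name Bowtie2, TopHat and Cuffdiff, without versions. Filters and scaling are not given. That the deposited values are FPKM was taken from these tools and from the values. Of 21815 entries with 21282 different identifiers, 18717 were tested, namely those that reached an FPKM of 1 in 3 or more libraries. Repeated identifiers were kept as separate entries. Means of the 17 groups were fitted to log2(FPKM + 1) with limma 3.58.1 (R 4.3.3) and a variance trend, leaving 34 residual degrees of freedom. Two-sided p-values were adjusted by Benjamini-Hochberg, with a threshold of 0.05. The class code was tested on simulated data. Columns of a group are numbered 0, 1 and 2, and these numbers name the libraries. Same-numbered libraries of dry ST and ST at full turgor deviated together across genes (r = 0.21, 0.17 and 0.18), which pairs them by the data and not by the labels. Named genes were called, did not overlap between the groups compared, had a mean of at least 10 FPKM in the higher group and the largest changes, with 2 taken per direction. Alternatives were another pseudocount, filter, scaling, set of groups, margin or drying change, a replicate block, library weights, and each library left out. The comparison, classes and rules were chosen with earlier results of these data known.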

Additional observations from a re-analysis of the deposited data

Results flagged for a closer look

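The responses of the tissues differed by a test of the difference itself (limma interaction terms). The test treats ST and NST libraries as separate. Same-numbered ones deviated together across genes at full turgor (r = 0.68, 0.68 and 0.75) and in the dry state (r = 0.54, 0.39 and 0.48). In the rewatered state r was 0.24, -0.06 and 0.28. From full turgor to rewatering, 2941 genes changed more upward and 3843 more downward in ST than in NST, and from the dry state to rewatering 3959 changed more upward and 5565 more downward. Among the named genes, the change from full turgor to rewatering in ST minus that in NST was 6.1 on the log2 scale for Xvis03_205230 (standard error 1.31, limma adjusted p = 0.000405) and 7.54 for Xvis03_213679 (standard error 1.59, limma adjusted p = 0.000342). For Xvis03_218252, at or near 0 in rewatered ST, the fitted difference was -4.97 (limma adjusted p = 0.0465). The change on rewatering in ST minus that in NST was -2.38 for Xvis03_224098 (standard error 0.74, limma adjusted p = 0.00729), -3.51 for Xvis03_213865 (standard error 0.62, limma adjusted p = 1.6e-05) and 3.65 for Xvis03_210343 (standard error 0.72, limma adjusted p = 6.63e-05). For Xvis03_208703 the change from full turgor was short of the threshold (-2.07, limma adjusted p = 0.0971), and for Xvis03_207059 so was the change on rewatering (0.45, limma adjusted p = 0.591). All 8 named genes were chosen on ST libraries that enter these differences, so the values describe the genes and are no independent test.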

How the results depend on the processing

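The returned genes that had risen numbered 233 with a pseudocount of 0.1, and 246 when a mean of at least 5 FPKM was asked of the ST libraries compared, a setting chosen after seeing the data. A margin of 0.5 around full turgor left 24 returned genes that had risen and 15 that had fallen. With that margin, 31 genes were changed in rewatered ST while their dry ST interval lay within it. A drying change of at least 2 left 66 and 20 returned and 2446 held genes. Leaving out 1 library at a time gave 3723 to 3960 higher and 4878 to 5162 lower genes. Returned genes numbered 282 to 462 after a rise and 245 to 347 after a fall, and held genes 4667 to 5363. Genes changed in rewatered ST whose dry ST interval lay within the margin of 1 numbered 518 to 761. Between tissues, 5891 to 6678 genes differed in the change from full turgor and 8466 to 9315 in the change on rewatering. The other settings moved no count by over 1.5 times, and the named log2 changes kept their direction and passed the threshold wherever they could be fitted. Same-numbered libraries of rewatered ST and ST at full turgor did not deviate together (r = -0.11, -0.11 and 0.07 across genes), so they share only a number; the replicate block gave 4265 higher and 5762 lower genes and 837 returned, and it moved no count by over 1.5 times. The table holds no counts, so depth cannot be set against the spread, and low genes are the least certain.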
